A study of Mus musculus with 7 samples.

Results

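HDAC1 ChIP-seq peaks were examined at Tbx5, Tbx4, Pitx1 and Isl1. These transcription factor genes of forelimb and hindlimb development in the mouse embryo are called identity genes below. A peak was taken as belonging to a gene when it had at least 1 bp within the annotated gene body or the 20 kb on either side. By this rule 21 of the 15347 deposited peaks were members, of which 5 lay at the forelimb gene Tbx5, 8 at Tbx4, 6 at Pitx1 and 2 at Isl1. The experiment held 4 HDAC1 ChIP samples and 3 inputs, which are sheared chromatin sequenced without antibody, all from Swiss Webster mouse embryos at E11.5 with 40 to 44 somites and 3 litters to a pool. Forelimb and hindlimb buds were dissociated and pooled before ChIP, so every peak is a sum over both limbs and over all cell types of the bud, and binding in forelimb cells cannot be told apart from binding in hindlimb cells. The authors deposited 1 peak list for all 4 ChIP samples. Each peak has its coordinates and its place in the order of the list there, with no height, read count or per-sample value. All 15347 peak starts are multiples of 50 bp, so distances and overlaps below given in single bases are finer than this step. Positions below count from 1 at the top of this order, and the list does not say which measure ranks it. A fold change and false discovery rate for each peak are described among the study's source data and were not used here. The list carries no read depth, no value below has a replicate error and no test over samples was possible.

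HDAC1 is a histone deacetylase that acts within several corepressor complexes, and in many tissues it is also found at the promoters of active genes. Tbx5 and Tbx4 encode related T-box factors that act in outgrowth of the forelimb and hindlimb bud and activate Fgf10. Pitx1 encodes a homeodomain factor that directs hindlimb development and activates Tbx4, while Isl1 encodes a LIM-homeodomain factor that acts at the onset of hindlimb formation. Tbx5 RNA is restricted to the forelimb and Tbx4 and Pitx1 RNA to the hindlimb in limb mesenchyme, so in a pooled sample only some of the cells are expected to transcribe each gene.

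Sequences under these peaks are shown first to set the intron and exon sequence at the centre of the long peaks beside the promoter sequence at the starts of Tbx5, Tbx4 and Isl1. Each was read 5′ to 3′ on the strand of its gene from GRCm38 (mm10). Capitals mark the letters of a GC box (GGGCGG) or of a PITX site (GGATTA), each searched on both strands. Untranslated bases were left out. The centre of the highest-placed peak at Tbx5 lies in intron 2, at chr5:119837725-119838024 on the plus strand.
Tbx5, centre of its 6150 bp peak: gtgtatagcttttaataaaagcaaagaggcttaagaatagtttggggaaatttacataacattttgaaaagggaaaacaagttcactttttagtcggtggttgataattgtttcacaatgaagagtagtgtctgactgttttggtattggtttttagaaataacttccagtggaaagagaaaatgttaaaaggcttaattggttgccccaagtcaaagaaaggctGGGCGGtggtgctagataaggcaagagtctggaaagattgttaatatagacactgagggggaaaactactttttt
The reference start of Tbx5 was not itself under a peak. It fell in a gap of 300 bp between peaks, of which the 163 bases upstream of the start, at chr5:119834500-119834662 on the plus strand, end in a CA repeat.
Tbx5, bases before the start: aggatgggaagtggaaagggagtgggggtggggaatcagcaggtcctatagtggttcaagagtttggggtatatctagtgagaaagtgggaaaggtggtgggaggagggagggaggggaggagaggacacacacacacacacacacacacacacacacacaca
At Tbx4, the centre of the highest-placed peak lies in intron 1, at chr11:85889075-85889374 on the plus strand.
Tbx4, centre of its 5250 bp peak: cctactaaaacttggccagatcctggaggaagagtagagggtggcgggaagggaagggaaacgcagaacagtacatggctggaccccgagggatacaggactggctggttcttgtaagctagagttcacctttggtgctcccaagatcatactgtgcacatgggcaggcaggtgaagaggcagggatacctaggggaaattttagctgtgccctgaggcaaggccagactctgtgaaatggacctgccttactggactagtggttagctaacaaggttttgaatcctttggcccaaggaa
The next peak upstream, of 400 bp, holds the Tbx4 start, and its 272 bases before the start, at chr11:85886150-85886421 on the plus strand, hold a pair of GC boxes.
Tbx4, bases before the start: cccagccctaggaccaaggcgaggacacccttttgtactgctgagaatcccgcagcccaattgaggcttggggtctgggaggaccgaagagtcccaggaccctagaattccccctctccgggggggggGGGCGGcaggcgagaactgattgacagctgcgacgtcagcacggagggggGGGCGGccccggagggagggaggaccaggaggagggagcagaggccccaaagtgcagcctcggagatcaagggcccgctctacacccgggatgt
The centre of the Pitx1 peak spans the end of exon 2 and the beginning of the intron after it, at chr13:55828175-55828474 on the minus strand.
Pitx1, centre of its 7650 bp peak: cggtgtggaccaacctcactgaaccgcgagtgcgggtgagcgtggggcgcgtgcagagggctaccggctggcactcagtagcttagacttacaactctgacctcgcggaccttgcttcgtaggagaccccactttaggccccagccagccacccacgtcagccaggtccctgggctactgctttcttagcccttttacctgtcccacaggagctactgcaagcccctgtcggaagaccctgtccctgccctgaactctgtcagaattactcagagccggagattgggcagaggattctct
The centre of the larger Isl1 peak lies 161 to 460 bp before the Isl1 start, at chr13:116309850-116310149 on the minus strand.
Isl1, centre of its 900 bp peak: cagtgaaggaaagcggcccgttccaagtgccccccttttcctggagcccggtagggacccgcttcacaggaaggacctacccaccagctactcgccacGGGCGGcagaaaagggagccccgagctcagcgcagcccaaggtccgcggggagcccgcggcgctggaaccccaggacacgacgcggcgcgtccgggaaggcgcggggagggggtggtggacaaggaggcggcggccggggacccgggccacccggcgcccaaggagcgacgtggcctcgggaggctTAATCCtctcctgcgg

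Tbx5, Tbx4 and Pitx1 each lay under a broad block of HDAC1 peaks, whereas Isl1 had a pair of short peaks at its start. Bases under peaks in the window, which is the gene body with 20 kb added on each side, came to 13500 at Tbx5, 8750 at Tbx4, 10950 at Pitx1 and 1100 at Isl1. Across all 21938 protein-coding genes the median was 404.5 bp, and 99.8% of them had less than Tbx5, 99.7% less than Tbx4, 99.8% less than Pitx1 and 71.4% less than Isl1. All 4 genes had a peak in the window, as did 59.3% of protein-coding genes. Tbx5, Tbx4 and Pitx1 had 5 or more peaks, a number that 3.84% of genes reached, and the same 3 had a peak of 5 kb or more in the gene body, which 0.210% of genes did. The limits of 5 peaks and 5 kb were chosen after the values had been seen, and no test was made of them. A peak between 2 kb before and 1 kb after a protein-coding start was present at all 4 genes, beside 44.1% of protein-coding genes.

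**Figure D1:**
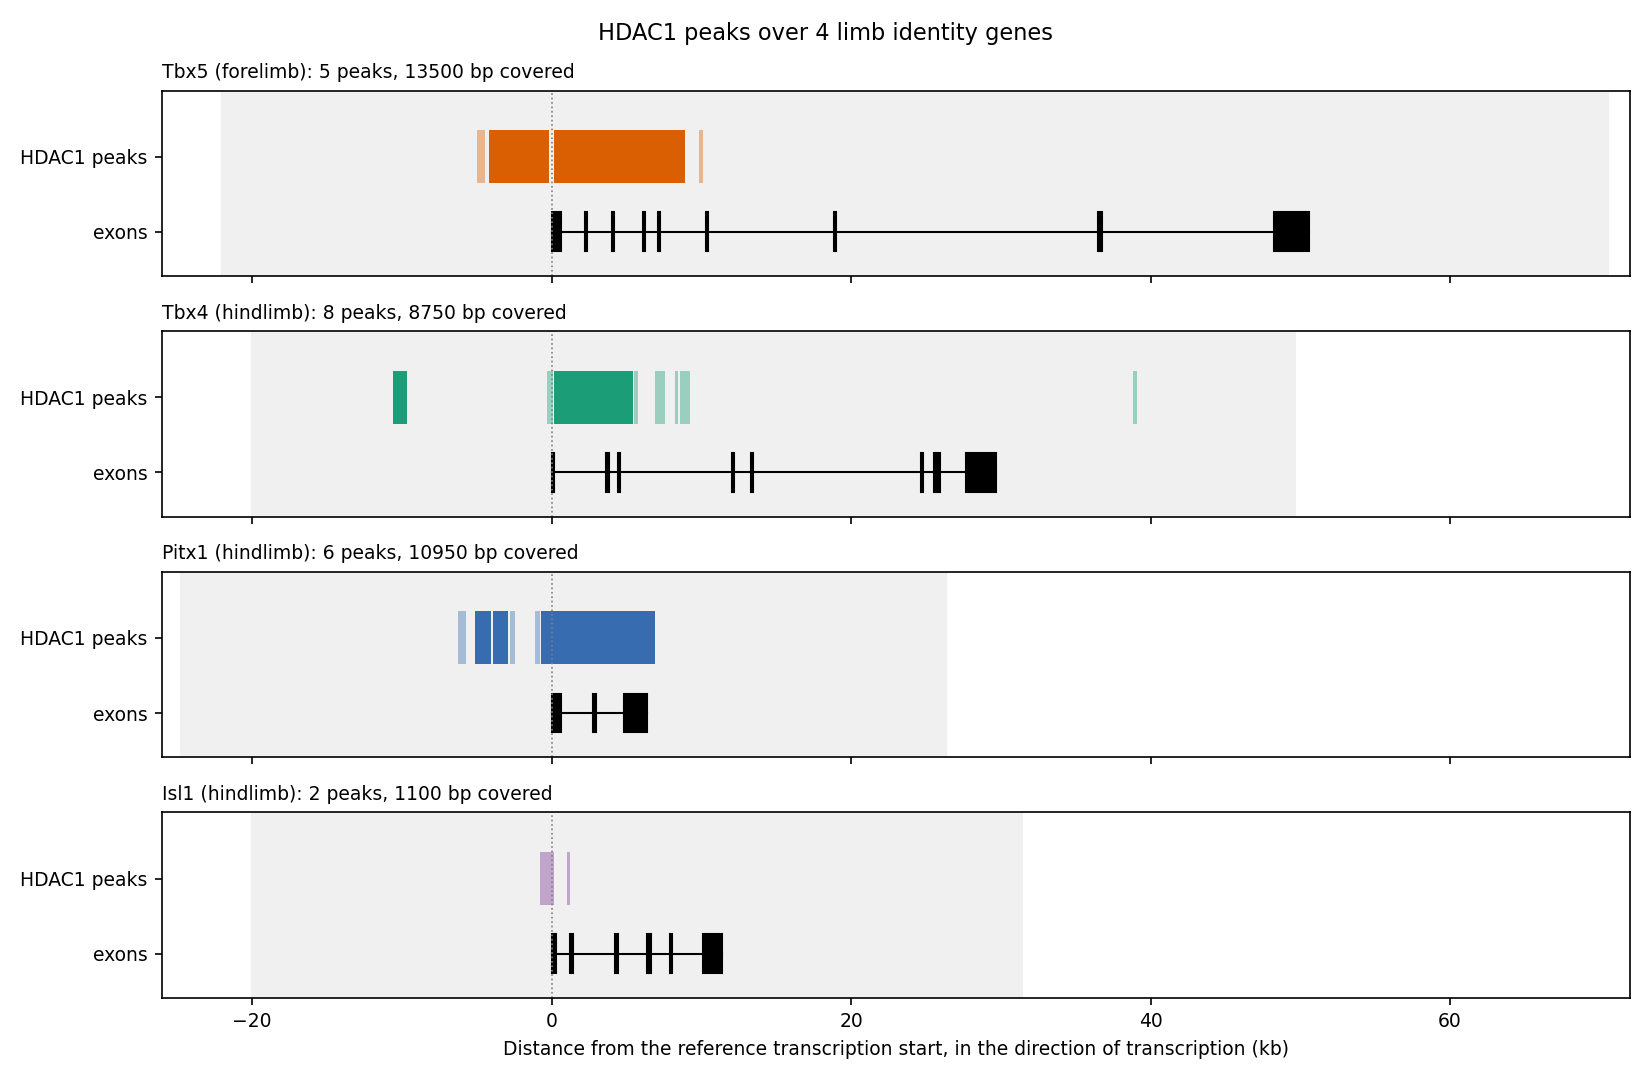
Map of HDAC1 peaks (coloured boxes) and exons of the reference transcript (black boxes) at the 4 genes, by distance from the reference start in kb along the direction of transcription. Full colour marks peaks in the first 3836 positions of the ranked list, pale colour later ones, and grey shading the window. Peaks at Tbx5, Tbx4 and Pitx1 run several kb into the gene, and the 2 Isl1 peaks stay within 1239 bp of the start.

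Tbx5 occupies 52552 bp on chromosome 5 (119832668 to 119885219, plus strand). Its 5 peaks followed one another with gaps of no more than 1000 bp and made a run of 15050 bp, 89.7% of it under peaks. Among the 12193 runs joined in this way over the whole list, only 4 were this long or longer, that of Tbx5 included. The longest peak, of 6150 bp, began 137 bp after the reference start, covered most of exon 1 and all of exons 2 to 4, and stood at position 173. A peak of 4000 bp at position 1394 lay just upstream and ended 164 bp before the start, and it held the start of Gm43050, a long noncoding RNA on the opposite strand. Exon 5 fell under another large peak, of 2600 bp, at position 2237. Short peaks closed the run at either end, with 500 bp at position 12524 on the upstream side and 250 bp at position 13997 on the downstream side. The peaks lay in the 5′ part of the gene. Counted from the annotated gene start at 119832668, which is upstream of the reference start, 89.6% of the first 12 kb was under peaks. These 12 kb take in 1832 bp of the 4000 bp peak. Of the remaining 40552 bp only 0.20% was under peaks. Exons 6 to 9 had no peak.

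The gap at the reference start held 300 bp between the 4000 and the 6150 bp peaks. A CA repeat of 51 bp ran through the start and ended 13 bp after it, and the gap held 0 CpG dinucleotides. Whether reads can be placed uniquely at this repeat was not tested. Starts of other Tbx5 transcripts, which are outside the annotation's basic set, lay under the 4000 bp peak and under the 6150 bp peak.

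Tbx4 occupies 29676 bp on chromosome 11 (85886422 to 85916097, plus strand), and its 8 peaks were the most of the 4 genes. Most were small, with a median of 525 bp against 2600 bp at Tbx5, and 60% of the bases lay in 1 peak. That peak, of 5250 bp at position 336, began 178 bp after the reference start, covered exons 2 and 3 and held a downstream start at 85890063. A peak of 400 bp at position 8442, just upstream, held the reference start. Joined as for Tbx5, these 2 peaks and the next one downstream, of 300 bp, made a run of 6050 bp, 98.3% of it under peaks. Further into intron 3 came peaks of 300 bp (position 14359), 700 bp (position 10184), 200 bp (position 15007) and 650 bp (position 7555). No base of exons 4 to 9 was covered, and the covered share was 60.2% over the first 12 kb and 0% over the 17676 bp that follow. The remaining Tbx4 peaks stood apart from the gene. A peak of 950 bp at position 3263 lay 9623 bp upstream, and 1 of 300 bp at position 9347 lay 9153 bp downstream. A further basic start of Tbx4, at 85896765, was 1116 bp from the nearest peak.

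Pitx1 is annotated over 11142 bp on chromosome 13 (55825051 to 55836192, minus strand), but its reference transcript spans only 6375 bp. All of that transcript, with each of its 3 exons, lay under a single peak of 7650 bp at position 73. Only 9 peaks of the list, this one included, were as long. It ran from 724 bp before the start to beyond the 3′ end and also held the start of Gm47071, an antisense transcript. The other 5 Pitx1 peaks were upstream of the reference start. Nearest was a peak of 350 bp at position 7533. A cluster of 4 peaks followed 2425 to 6224 bp upstream, of 350 bp (position 14048), 1000 bp (position 2576), 1100 bp (position 1880) and 500 bp (position 13078). The 1100 bp peak held the start of a longer Pitx1 transcript outside the basic set and the start of the long noncoding RNA Gm28760. In all, 3 of the 6 Pitx1 peaks stood in the first 3836 positions of the list.

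Isl1 occupies 11409 bp on chromosome 13 (116298281 to 116309689, minus strand), nearly the same length as Pitx1, with 2.98% of the gene body under peaks against 85.6%. Its larger peak, of 900 bp at position 4674, reached from 760 bp before the start to 139 bp after it. The smaller, of 200 bp at position 10423, lay 1040 to 1239 bp after the start and touched exon 2 by 14 bp. No peak of Isl1 was in the first 3836 positions. Beyond these, the next peak on the upstream side was 714361 bp away, at the start of Parp8, and the next on the downstream side was 1207932 bp away. The whole of the 1196316 bp between Isl1 and its downstream neighbour Itga1 held 0 peaks.

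The forelimb gene was compared with the hindlimb genes by the covered share of the window, which was 14.6% for Tbx5 and 12.6% for Tbx4, 21.4% for Pitx1 and 2.14% for Isl1. Tbx5 lay inside the hindlimb range, 2.55 percentage points above the hindlimb mean of 12.04%. This difference turned with the definition. Over the gene body alone Tbx5 had 20.6% and the hindlimb mean was 37.7%, a difference of -17.0 percentage points, and without Isl1 in the hindlimb mean the difference over the window was -2.40 percentage points. The hindlimb genes spread over more than the difference, and with 1 forelimb gene in 1 pooled list it has no test. Tbx5 and Tbx4 had longest peaks of 6150 bp and 5250 bp, best positions of 173 and 336, and 20.6% and 24.4% of the gene body covered. They were further apart in covered bases, 13500 and 8750, and in median peak length, 2600 bp and 525 bp, which was 750 bp at Pitx1 and 550 bp at Isl1. Peak length depends on how closely spaced peaks are divided. With peaks no more than 1000 bp apart joined, the longest runs were 15050 bp at Tbx5, 6050 bp at Tbx4, 8050 bp at Pitx1 and 2000 bp at Isl1. At both Tbx5 and Tbx4 the longest peak began shortly after the reference start, at 137 bp and 178 bp, and covered the second and the third exon. The starts themselves differed: that of Tbx5 lay in the 300 bp gap, and that of Tbx4 was under the 400 bp peak.

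**Figure D2:**
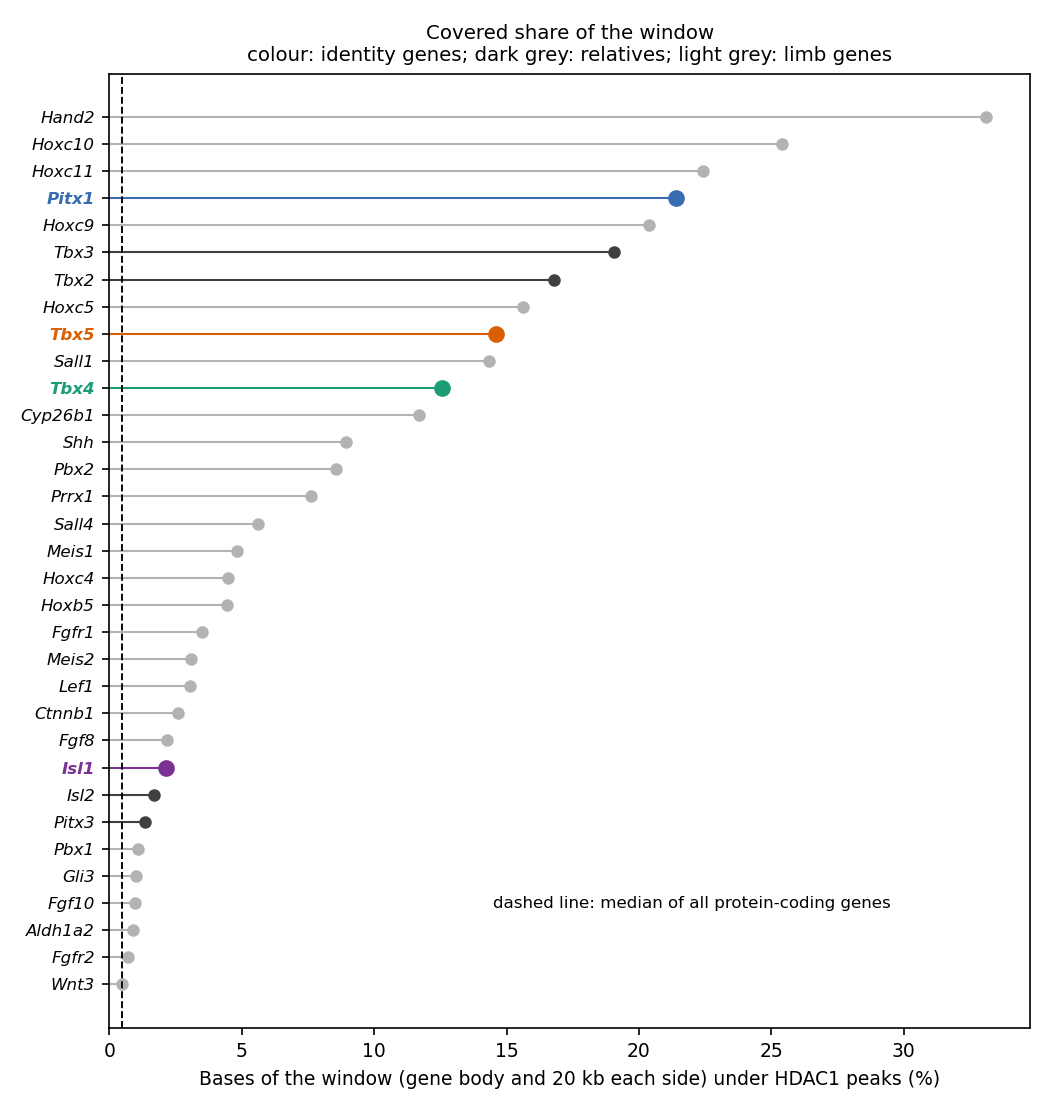
Share of the window (gene body and 20 kb on each side) under HDAC1 peaks, in percent, for the 4 identity genes (colour), 4 relatives (dark grey) and 25 other limb genes (light grey), with the median of all protein-coding genes as a dashed line at 0.48%. Pitx1, Tbx5 and Tbx4 stand in the upper part of the list and Isl1 at 2.14% in the lower.

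The member peaks fell into a few long peaks near the top of the list and many short ones further down. Of the 21, 8 stood in the first 3836 positions, 3 in the next 3837 and 10 after position 7673, and their median position of 7555 was near the 7674 of all peaks. Their median length was 650 bp, against 450 bp in the list. Length and position went together in the whole list as well: all 41 peaks of 5 kb or more had positions from 4 to 1340, and 3 of these 41 were the longest peaks of Tbx5, Tbx4 and Pitx1. A length over 1000 bp was reached by 6 of the 21 member peaks, 3 at Tbx5, 1 at Tbx4 and 2 at Pitx1, and by 16.0% of all peaks. At a protein-coding start, by the same window as above, lay 10 of 21, against 70.1% of all peaks. Of the 11 others, the 2600 bp Tbx5 peak held exon 5, and the rest were in introns, further upstream or downstream. Of the 34300 bp under member peaks, 81.5% were in the gene bodies. The share was 80.2% at Tbx5, 82.6% at Tbx4, 87.1% at Pitx1 and 30.9% at Isl1, where most of the bases were in the promoter. The annotated gene bodies of Tbx5 and Pitx1 begin upstream of their reference starts, so some bases before those starts count as gene body. At Isl1 the gene body begins at the reference start.

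**Figure D3:**
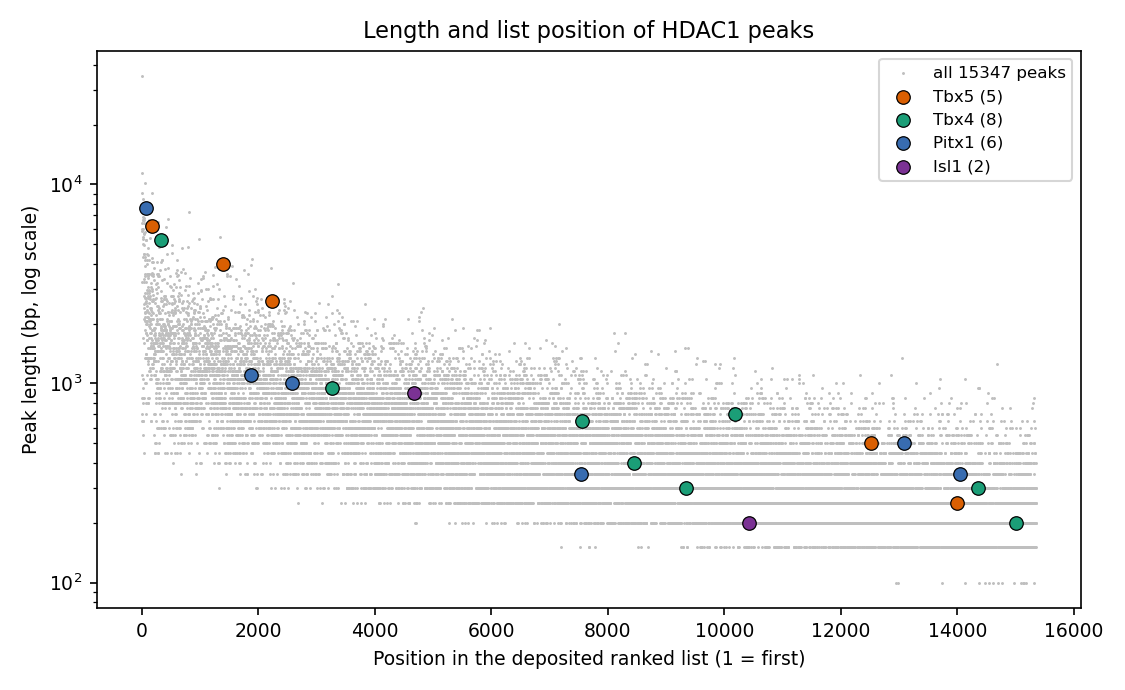
Length of each HDAC1 peak in bp (log scale) against its position in the ranked list, for all 15347 peaks (grey) and the member peaks (colour, number of peaks in brackets). The Pitx1, Tbx5 and Tbx4 peaks of 7650, 6150 and 5250 bp are at the upper left, and 10 member peaks lie beyond position 7673.

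In base composition most member peaks were poorer in GC and CpG than the bulk of the list, and only the Isl1 promoter peak was above both medians. GC content had a median of 51.8% over the 21 peaks and 62.9% over all peaks, and 3 of the 21 were above the latter. These were the 400 bp Tbx4 peak at the start (68.25%), the 1100 bp Pitx1 peak (64.1%) and the Isl1 promoter peak. The observed to expected ratio of CpG dinucleotides, which is high in CpG islands and low in the bulk of the genome, had a median of 0.417 against 0.758, and 15 of the 21 were below the lower quartile of all peaks, 0.499. All 5 Tbx5 peaks were among these, with GC content from 47.6% to 51.3% and CpG ratios from 0.213 to 0.465. The longest peaks of Tbx4 (51.8% GC, ratio 0.463) and Pitx1 (57.3% GC, ratio 0.607) were also below the medians of all peaks. Peaks of 5 kb or more had medians of 55.5% and 0.643, also below those of the whole list. The Isl1 promoter peak had 63.3% GC and a ratio of 0.943, higher than 86.5% of all peaks, and the 300 bases printed above hold 32 CpG dinucleotides, against 2 at the centre of the Tbx5 peak. The small Isl1 peak had 33.0% GC, lower than all but 0.111% of peaks. These are descriptions of 21 peaks that share 4 loci, without a test.

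**Figure D4:**
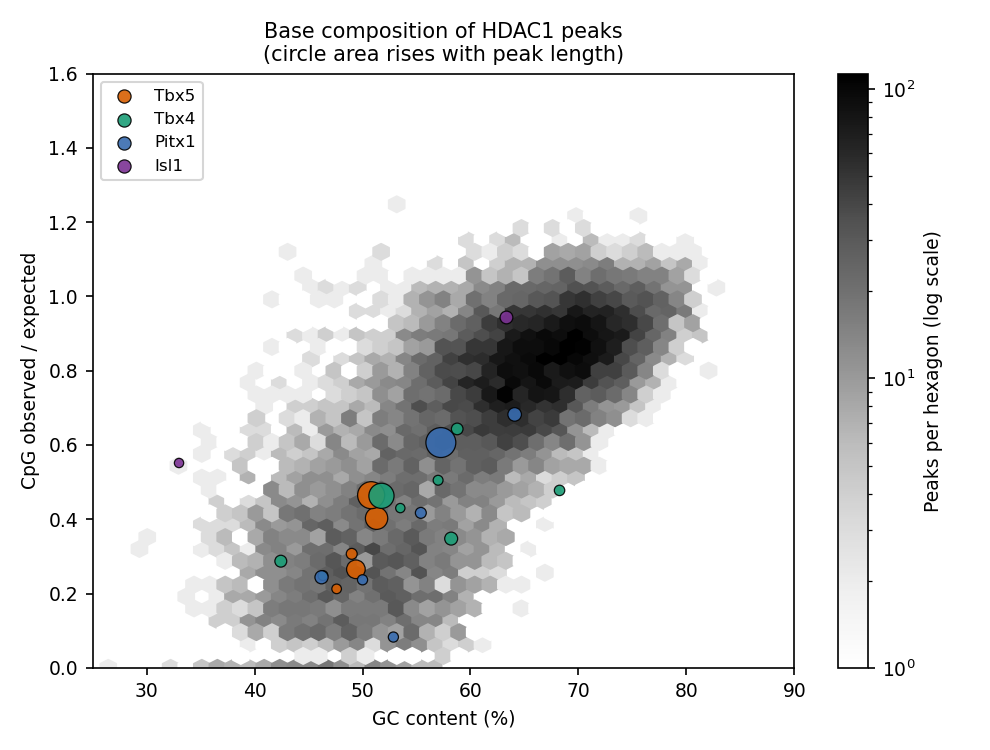
GC content in percent and observed to expected CpG ratio of all HDAC1 peaks (grey hexagons, darker with more peaks on a log scale) and of the member peaks (circles, area rising with peak length). Most member peaks lie to the lower left of the dense region and the Isl1 promoter peak, at 63.3% and 0.943, lies within it.

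At each peak, the 300 bp about its midpoint were searched on both strands for the letters of 5 motifs. The PITX and homeodomain motifs share the letters ATTA and can overlap. For peaks shorter than 300 bp, 24.0% of the list, the searched bases reached beyond the peak. Among these were a 250 bp peak of Tbx5 and 200 bp peaks of Tbx4 and Isl1. A T-box site (AGGTGTGA) was found in 0 of the 21 and in 0.775% of all peaks, a GLI site (GACCACCCA) in 0 of 21 and 0.326%, and a homeodomain site (TAATTA) in 0 of 21 and 3.60%. The PITX letters (GGATTA) occurred in 1 of 21 centres, that of the Isl1 promoter peak, and in 4.67% of all peaks, and a GC box in 6 of 21 and 49.8%. The centre is a small part of a long peak. Over their whole lengths, the longest peaks of Tbx5, Tbx4 and Pitx1 held the PITX letters 2, 1 and 3 times. The homeodomain letters occurred there 0, 0 and 1 times. No whole-length share over all peaks is given for comparison. RefSeq promoter sequences, of 250 bases before to 50 after a start in GRCm38, were matched for 2 of the 4 genes. The Isl1 promoter was covered by its peak over its whole length, while the Tbx4 promoter in that table, at the downstream start at 85896765, had no covered base. A GC box was present in this Tbx4 promoter, not in that of Isl1, and in 35.7% of the RefSeq promoters. The PITX letters were in the Isl1 promoter, not in that of Tbx4, and in 7.06% of the RefSeq promoters. This Isl1 site is the same one that was found in the centre of the Isl1 promoter peak. The T-box letters were in 1.28%, the GLI letters in 0.253% and the homeodomain letters in 5.29% of them, and none of these 3 was in the promoters of Isl1 and Tbx4.

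Tbx5 and Tbx4 each stand beside another T-box gene that arose with them as a linked pair, Tbx3 and Tbx2, which act in limb patterning and outgrowth. These neighbours were marked by peaks too. Tbx3 had 13 peaks over 10300 bp, 19.1% of its window, the longest of 5450 bp at position 1340. Tbx2 had 10 peaks over 8300 bp, 16.8%, the longest of 3450 bp. The interval between Tbx3 and Tbx5, 147943 bp long, had 9818 bp under peaks (6.64%), and 10 peaks lay wholly inside it. The 44473 bp between Tbx2 and Tbx4 had 1773 bp under peaks (3.99%), and 3 peaks lay wholly inside. Of the peaks between Tbx3 and Tbx5, 5 lay 20 to 40 kb upstream of Tbx5, just beyond its window, with 6100 bp in all. The largest was 3750 bp long, at position 714 and over the gene 1700021F13Rik, and the nearest was 250 bp long, 24469 bp from Tbx5 and 4469 bp outside the window. With 50 kb on each side, the Tbx5 window took in these peaks and held 10 peaks with 19600 bp, and the Tbx4 window reached the Tbx2 peaks and held 17. At Pitx1 and Isl1 the counts stayed at 6 and 2 at 50 kb.

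**Figure D5:**
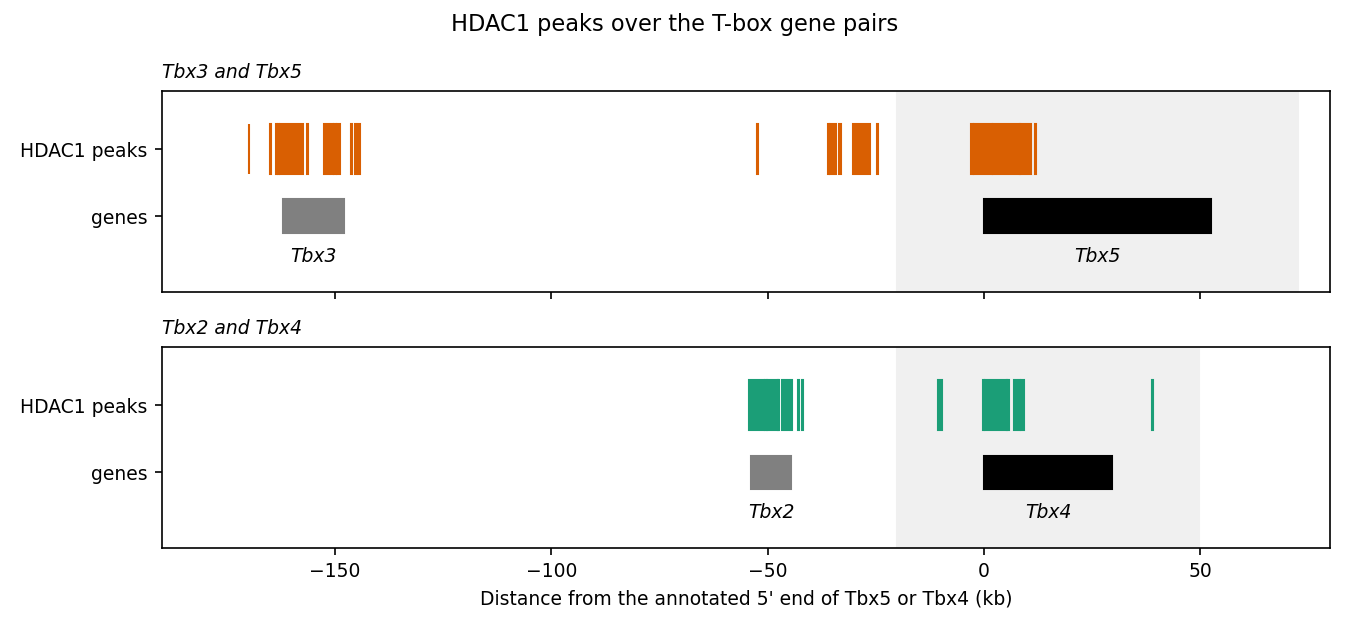
HDAC1 peaks (coloured boxes) over the Tbx3 and Tbx5 and the Tbx2 and Tbx4 pairs, by distance in kb from the annotated 5′ end of Tbx5 or Tbx4, with gene bodies below and the 20 kb windows of Tbx5 and Tbx4 shaded grey. Peaks cluster over all 4 genes, and 5 peaks lie 20 to 40 kb upstream of Tbx5.

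Outside the windows, the distance to the next peak differed between the genes, and no typical spacing over the list is given for comparison. The first peak outside the Tbx4 window on the downstream side was 150 bp long and 26103 bp from the gene, before Brip1, and on the upstream side 250 bp long and 41823 bp away, beyond the predicted gene Gm11444. Downstream of Tbx5 the next peak was 138981 bp from the gene, in an interval of 231245 bp before Rbm19 that held 1 peak in all. Around Pitx1 the next peaks were 126158 bp upstream, toward H2afy, and 97302 bp downstream, in Pcbd2, beyond Catsper3. The upstream one overlapped Gm47071, the antisense gene whose start lay under the 7650 bp Pitx1 peak.

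Relatives of the homeodomain genes had short peaks. Pitx3, a gene of lens and midbrain development, had 2 peaks with 700 bp, against 10950 bp at Pitx1. Isl2, a motor neuron gene, had 2 peaks with 800 bp and none at its start, close to the 1100 bp of Isl1. Among 25 other genes of limb initiation and patterning, 25 had a peak in the window and 24 had one at a protein-coding start. A peak of 5 kb or more in the gene body was present at 5 of them, and the medians were 5 peaks and 4500 bp. Over all protein-coding genes the shares with such peaks were 59.3%, 44.1% and 0.210%, in the same order. Ligands and receptors, 6 genes, had a median of 2550 bp, the 17 transcription factors 7450 bp and the 2 retinoic acid enzymes 4175 bp. In covered bases, Tbx5, Tbx4 and Pitx1 were above each of these medians and Isl1 was below them. The windows differ in length, and by covered share Isl1, at 2.14%, was above the median of the ligands and receptors, 1.56%. It was below those of the transcription factors, 5.62%, and the retinoic acid enzymes, 6.28%. Fgf10, the ligand gene activated by Tbx5 and Tbx4, had 2 peaks with 1550 bp. The largest covered totals were 20950 bp at Fgfr2, an FGF receptor gene whose annotated model spans 2960900 bp, 14450 bp at Hand2, a regulator of posterior limb identity with its best peak at position 16, and 14050 bp at Hoxc5. Windows of the Hoxc genes overlap and share peaks. The list was chosen with earlier results of these data known, and its counts are given as background only.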

How the data were processed

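ChIP-seq was made with an HDAC1 antibody in 4 samples beside 3 inputs, from fixed, pooled E11.5 limb buds. Libraries were amplified per the labels, and the submitters' processing notes name Bowtie2 2.2.5 and the build mm10. Peak calling was done by the authors in CisGenome under a false discovery rate limit, over all ChIP samples, and deposited a single ranked list of peak starts and ends for the samples together. The deposited columns are coordinates, with no count, signal or score, so read depth cannot be taken from it and no interval or test is given. Fold changes and false discovery rates in the study's source data were not used here.

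Peaks were read as 1-based with inclusive ends. Gene bodies and starts were those of GENCODE M21, on the same build as the peaks, and the window, the overlap of 1 bp and the start window were as given in the report. The reference transcript of each gene was 1 basic protein-coding transcript. Starts were those of basic protein-coding transcripts. Runs joined peaks no more than 1000 bp apart. Sequences were read from GRCm38 with pysam 0.24.0 and samtools 1.23.1 under Python 3.11.15, and figures were drawn with matplotlib 3.10.9. The overlap procedure was tested on simulated peaks against base-by-base counting.

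Members, gene lists and motifs were chosen with earlier results of these data known. Genes named were the members, genes with a start under a member peak, the nearest protein-coding neighbours, the linked T-box genes, the paralogs Pitx3 and Isl2, and from the limb list those with the 3 largest covered totals. Fgf10 was named as well after its value was seen, and 1 gene of the rule is not reported here. The limits of 5 kb, 5 peaks and 12 kb were set after the data were seen. Other windows, list lengths, merging and gene extents were tried as alternatives.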

Additional observations from a re-analysis of the deposited data

How the results depend on the processing

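The count of 21 peaks stayed within 1.5 times with the gene body alone, 10 kb flanks, most of a peak required inside the window, starts read as 0-based, or basic transcripts for the gene extent (chosen after seeing the data). It was 35 with 50 kb and 39 with 100 kb flanks, 11 in the first 7673 and 8 in the first 3836 positions of the list, and 8 on joining peaks separated by up to 1000 bp. Tbx5 minus the hindlimb mean, 2.55 percentage points of the window, was 0.23 with 10 kb, 5.85 with 50 kb and 3.38 with 100 kb flanks, 3.33 in the first 7673 and 4.46 in the first 3836 positions, and 2.14 with basic transcripts. It was 2.81 without Tbx4 and 7.24 without Pitx1, and it reversed to -2.40 without Isl1 and to -17.0 over the gene body alone. The gene body of Tbx5 is the longest of the 4, so flanks weigh least there. All 4 genes kept a peak at a start with 5 kb on both sides, at the most upstream start and in the first 7673 positions. In the first 3836 positions 3 did, Isl1 having none, and the reference start base itself was under a peak at 3, not at Tbx5. The list gives no read depth, and a site without a peak may be below the authors' threshold. Leaving out a sample could not be run, as the list pools all samples. No paired analysis was possible because no sample has values of its own in the list.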
